A study of Mus musculus with 12 samples.

Results

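The 8 genes described here are *Srebf1*, which encodes the transcription factor SREBP-1, and 7 genes of the pathway that turns acetyl-CoA into fatty acids and glycerolipids, namely *Acly*, *Acss2*, *Acaca*, *Fasn*, *Thrsp*, *Gpam* and *Pnpla3*. They were chosen by name, as every probe whose annotation gives 1 of these symbols and no other, which found 10 of the 36227 probes and 8 of the 18069 named genes on the array. All 8 genes had at least 1 probe above the limit of sensitivity, and 9 of the 10 probes were among the 30795 tested. Whole ovaries of 12 female mice were each hybridized to a CodeLink array of 1 colour to ask how ovarian gene expression of the obesity-prone lethal yellow (LY) mouse differs from that of its lean black counterpart as the animals age. The 4 groups held 3 mice each: 180-day LY mice (labelled C56BL/6J Ay/a), 180-day black mice (C56BL/6J a/a), 90-day LY mice (Ay/a) and 90-day black mice (a/a). Mice of every group received the GnRH antagonist Antide at 10 microg/g and then equine chorionic gonadotropin at 1 IU/5 g body weight, which stimulates follicle growth, and the ovaries were collected on day 7. In Ay mice a deletion places agouti under the promoter of *Raly*, so that agouti is made in nearly every tissue and *Raly* is lost from 1 chromosome. A whole ovary mixes granulosa, theca, luteal and stromal cells with oocytes and adhering fat, so fewer cells of a type and less RNA per cell cannot be told apart.

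SREBP-1 is made as a membrane protein of the endoplasmic reticulum, is carried to the Golgi by Scap when sterols are low, and is cut there by proteases so that its N-terminal part enters the nucleus. In liver and fat it switches on the enzymes of fatty acid synthesis, and insulin and the oxysterol receptors raise its own transcription. The pathway it serves starts with cytosolic acetyl-CoA, which *Acly* makes from citrate and *Acss2* from acetate. *Acaca*, acetyl-CoA carboxylase, converts acetyl-CoA to malonyl-CoA, and *Fasn*, fatty acid synthase, builds palmitate from it. *Thrsp* encodes Spot 14, a small protein that adjusts lipogenesis. *Gpam*, the mitochondrial glycerol-3-phosphate acyltransferase, joins fatty acids to glycerol phosphate, and *Pnpla3* encodes a lipid droplet protein with lipase and acyltransferase activity whose gene is a target of SREBP-1 in liver.

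The windows around the transcription start of *Acly*, *Acss2* and *Fasn* are shown because *Acss2* and *Acly* had the 2 largest interactions of genotype with age among the 8 genes, while *Fasn*, a classical target of SREBP-1, had small genotype differences. Each runs 5′ to 3′ on the gene's strand from 250 bases before the start to 50 bases after it, in RefSeq's GRCm38.p6. Capitals mark TCACCC, the core of a sterol regulatory element, and CCAAT, the box of the factor NF-Y, on either strand (ATTGG is CCAAT read on the other strand).

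Acly (chr11:100527951-100528250, minus strand): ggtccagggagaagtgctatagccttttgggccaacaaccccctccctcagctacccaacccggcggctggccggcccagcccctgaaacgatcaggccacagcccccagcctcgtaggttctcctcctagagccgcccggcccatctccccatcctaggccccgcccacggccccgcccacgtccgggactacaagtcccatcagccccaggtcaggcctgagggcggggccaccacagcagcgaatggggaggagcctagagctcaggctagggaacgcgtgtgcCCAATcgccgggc

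Acss2 (chr2:155517793-155518092, plus strand): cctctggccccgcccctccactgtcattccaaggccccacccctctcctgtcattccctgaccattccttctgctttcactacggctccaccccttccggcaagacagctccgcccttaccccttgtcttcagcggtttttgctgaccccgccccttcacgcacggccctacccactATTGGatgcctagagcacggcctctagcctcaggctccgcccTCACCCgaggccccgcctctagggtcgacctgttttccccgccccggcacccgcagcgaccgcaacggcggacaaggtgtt

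Fasn (chr11:120824498-120824797, minus strand): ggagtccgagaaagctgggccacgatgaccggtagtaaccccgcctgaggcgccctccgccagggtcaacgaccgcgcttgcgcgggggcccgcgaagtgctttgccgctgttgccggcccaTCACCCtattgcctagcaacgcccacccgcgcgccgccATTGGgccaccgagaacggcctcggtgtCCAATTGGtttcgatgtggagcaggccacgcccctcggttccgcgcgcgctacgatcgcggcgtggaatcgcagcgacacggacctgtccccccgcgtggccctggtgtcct

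*Acss2* held 1 TCACCC and 1 CCAAT in this window and *Fasn* held 1 TCACCC and 3 CCAAT, of which a pair overlap in CCAATTGG. *Acly* held 1 CCAAT and no TCACCC. All 8 genes matched an entry of the promoter table, with 11 windows among them. TCACCC occurred in 5 of the 11 windows, 1 each of *Acss2*, *Fasn*, *Gpam*, *Pnpla3* and *Srebf1*, against 16.2% of the 32851 windows of all genes. Each of these 5 windows also held CCAAT, and 5.6% of all windows held both. GGGCGG, the GC box bound by Sp1, was found 4 times in the *Acly* window, 5 times in the *Acss2* window and not in that of *Fasn*, and 35.7% of all windows held it. The E-box CACGTG, searched on both strands, was in none of the 11 windows and in 7.15% of all. A match is a run of letters and was not tested as a binding site.

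The genotype labels were borne out by agouti, at 103 ± 7.36 units in 180-day LY mice, 0.294 ± 0.109 in 180-day black mice, 97.2 ± 1.79 in 90-day LY mice and 0.295 ± 0.0165 in 90-day black mice (SD, n = 3 mice each; a unit is the array's median intensity). *Raly* averaged 10.2 and 18.1 units in LY and black mice at 180 days and 9.33 and 15.5 units at 90 days. The correlation of arrays was 0.970 to 0.987 inside groups, 0.962 to 0.984 for LY with black mice of 1 age and 0.918 to 0.938 for mice of different ages, and each age had its own array set. Ovarian markers were present, with granulosa *Inha* at 48.3 to 159 units and theca *Cyp17a1* at 89.8 to 227 units over the 12 arrays, while the fat marker *Adipoq*, at 0.507 to 23.9 units, varied widely.

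*Srebf1* did not separate the genotypes at either age, but was much lower in both genotypes on the 180-day arrays than on the 90-day arrays. Its intensity was 0.444, 0.476 and 0.633 units in 180-day LY mice and 0.668, 0.458 and 0.507 units in 180-day black mice. At 90 days it was 1.34, 1.52 and 1.42 units in LY mice and 1.23, 1.57 and 1.86 units in black mice. The genotypes overlapped at both ages, whereas every 180-day value lay below every 90-day value. The LY minus black difference was -0.07 on the log2 scale at 180 days (95% interval -0.49 to 0.35) and -0.11 at 90 days (-0.53 to 0.32; limma adjusted p = 0.916 and 0.858). A second *Srebf1* probe was under the limit of sensitivity of 0.2 units on 11 of 12 arrays and was not tested.

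**Figure D1:**
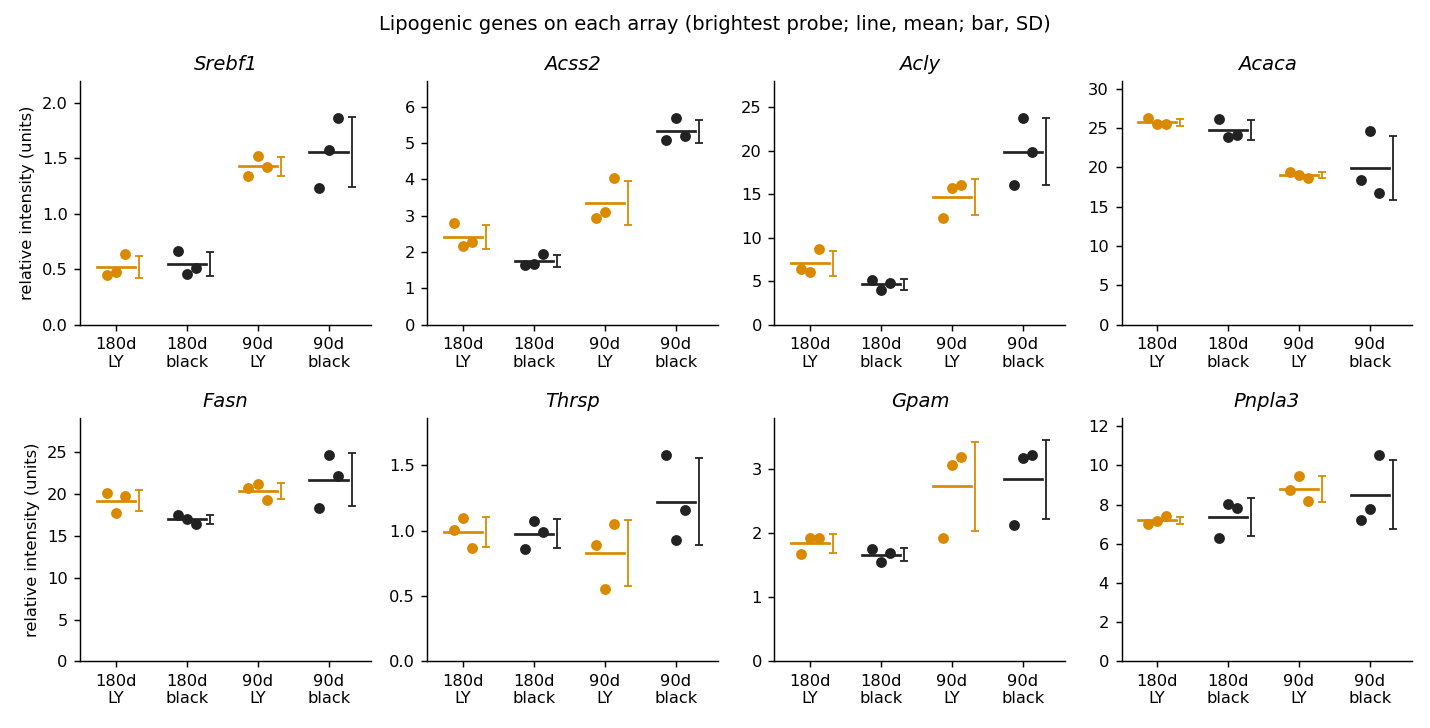
Relative intensity (units, linear axes from 0) of each of the 8 genes on each of the 12 arrays, LY in orange and black in black, with the group mean as a line and the SD as a bar (n = 3 mice). *Acss2* in LY mice lies above black mice at 180 days and below them at 90 days without overlap, while *Srebf1* overlaps between genotypes at both ages and is 0.444 to 0.668 units at 180 days and 1.23 to 1.86 units at 90 days.

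Among the 8 genes the acetyl-CoA suppliers had the largest interactions of genotype with age, although neither passed the adjusted threshold. *Acss2*, acetyl-CoA synthetase, was at 2.79, 2.17 and 2.27 units in 180-day LY mice and at 1.64, 1.68 and 1.94 units in 180-day black mice. At 90 days it was at 2.93, 3.09 and 4.03 units in LY mice and at 5.09, 5.68 and 5.18 units in black mice. Each LY mouse was thus above each black mouse at 180 days and below each at 90 days. This pattern of both ages was seen in 1.82% of all probes tested, and the reverse pattern in 0.422%. The means were 2.41 ± 0.332 units in LY and 1.75 ± 0.165 units in black mice at 180 days, a 1.37-fold ratio (log2 difference 0.45 ± 0.14, SE). At 90 days the means were 3.35 ± 0.593 units in LY mice and 5.32 ± 0.318 units in black mice, a 0.624-fold ratio (log2 difference -0.68 ± 0.14, SE). Neither passed the threshold of 0.05 after adjustment over all probes (limma adjusted p = 0.261 at 180 days and 0.102 at 90 days, unadjusted p = 0.00859 and 0.000599). The difference at 180 days exceeded that at 90 days by 1.13 on the log2 scale (95% interval 0.69 to 1.57), the interaction with the 55th smallest p of the 30795 probes, and it also missed the threshold (limma adjusted p = 0.0907). Without 90-day LY replicate 3, the highest LY mouse of its group, the interaction of *Acss2* passed it at 1.27 (limma adjusted p = 0.0417). It passed as well with a stricter filter on dim probes or with limma's intensity trend (adjusted p = 0.0242 with either). In these fits 33, 202 and 185 of all probes passed with a positive interaction, against 0 in the fit reported. With other single arrays left out, the limma adjusted p of *Acss2* rose to as much as 0.251.

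*Acly*, ATP citrate lyase, followed the same order with more spread. It was at 6.39, 6.01 and 8.73 units in 180-day LY mice and at 5.15, 3.97 and 4.79 units in 180-day black mice, without overlap. The 90-day values were 12.3, 15.7 and 16.05 units in LY mice and 16.04, 23.7 and 19.8 units in black mice, where the highest LY mouse reached just past the lowest black mouse. The mean was 7.05 ± 1.47 units in LY mice against 4.64 ± 0.602 units in black mice at 180 days (1.51-fold) and 14.7 ± 2.08 against 19.9 ± 3.84 units at 90 days (0.744-fold). The log2 differences of 0.59 ± 0.19 at 180 days and -0.43 ± 0.19 at 90 days (SE) did not pass the threshold (limma adjusted p = 0.269 and 0.365, unadjusted p = 0.00992 and 0.0458). The interaction was 1.02 with a 95% interval of 0.43 to 1.61 (limma adjusted p = 0.170).

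Some cell type markers also differed between the genotypes, and their part in the differences of *Acss2* and *Acly* was not tested. At 180 days the 7 granulosa markers summed to 172 to 229 units in LY mice and 237 to 317 units in black mice, with 6 of 7 lower in LY mice. The 8 oocyte markers summed to 37.9 to 54.0 units in LY mice and 56.5 to 74.5 units in black mice, with 7 of 8 lower. None of these 15 passed the test in limma, and 6 had an unadjusted p under 0.05, all lower in LY mice, against 11.9% of all probes. Sums of the 3 adrenal cortex markers were higher, at 0.820 to 0.996 units in LY mice and 0.586 to 0.794 units in black mice. All 3 were higher in LY mice, and none passed the test. Most of the sum was *Cyp11b2*, at 0.524 ± 0.0887 and 0.381 ± 0.0681 units (SD), where the groups overlapped. Its log2 difference was 0.46 (limma adjusted p = 0.370, unadjusted p = 0.0309). The defining adrenal marker *Cyp21a1* averaged 0.157 and 0.116 units, under the limit of sensitivity. Sums of the 3 hepatocyte markers were also higher, at 0.676 to 0.745 units in LY mice and 0.517 to 0.644 units in black mice. These sums were low too, and only 1 of the 3 was tested. It was *Ttr*, at 0.463 and 0.361 units (limma adjusted p = 0.867). *Ttr* was higher in LY mice without overlap, as 14.2% of all probes were. The sums of the 9 adipocyte markers overlapped, at 39.0 to 43.2 units in LY mice and 34.5 to 67.5 units in black mice. So did the sums of the theca, luteal and leukocyte markers. Of the 8 adipocyte markers tested 3 were higher and 5 lower in LY mice, and none passed the test. Among them *Lep* (leptin) was higher without overlap, at 0.325 ± 0.110 and 0.0499 ± 0.0420 units (SD), the latter under the limit of sensitivity. Its log2 difference was 3.05 (limma adjusted p = 0.308). At 90 days the 3 luteal markers were the ones that did not overlap among the ovarian lists, with 172 to 213 units in LY mice and 217 to 244 units in black mice. Most of that 90-day sum was *Hsd3b1*, which overlapped by itself, at 190 ± 21.8 and 212 ± 17.5 units (SD; limma adjusted p = 0.595). *Ptgfr* and *Akr1c18* were lower in LY mice at 90 days without overlap, as 9.57% of all probes were. The log2 difference was then positive for 6 of 7 granulosa and 7 of 8 oocyte markers, so that these lists also turned their sign between the ages, opposite to *Acss2* and *Acly*. In the interaction 4 of 7 granulosa and 5 of 8 oocyte markers had an unadjusted p under 0.05, against 12.1% of all probes. All of these were negative (list medians -0.64 and -0.49), and none passed the test in limma.

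The enzymes that build the acyl chain differed little between genotypes. *Acaca* was at 26.2, 25.4 and 25.5 units in 180-day LY mice and at 26.2, 23.8 and 24.1 units in 180-day black mice. Its 90-day values were 19.4, 19.0 and 18.6 units in LY mice and 18.4, 24.6 and 16.7 units in black mice. The genotypes overlapped at both ages, and 90-day black replicate 2 stood above the other 2 mice of its group. The log2 differences were 0.06 at 180 days (95% interval -0.22 to 0.34) and -0.05 at 90 days (-0.33 to 0.23), so that a 1.5-fold difference lay outside both intervals.

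*Fasn* was at 20.1, 17.7 and 19.8 units in 180-day LY mice and at 17.5, 17.0 and 16.4 units in 180-day black mice. All 3 LY mice were above all 3 black mice, by a small margin (1.13-fold, log2 difference 0.18 ± 0.11, SE; limma adjusted p = 0.563). At 90 days the values overlapped, at 20.7, 21.1 and 19.2 units in LY mice and 18.3, 24.7 and 22.1 units in black mice (log2 difference -0.08, 95% interval -0.33 to 0.16). A second, dimmer *Fasn* probe read otherwise. It averaged 0.559 units in LY and 0.512 units in black mice at 180 days, and 0.363 units in LY and 0.258 units in black mice at 90 days, where the LY mice were all above the black mice (log2 difference 0.48; limma adjusted p = 0.203). Across the 12 arrays, centred within age, these probes correlated at -0.17, so what is said of *Fasn* holds for its brighter probe.

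*Thrsp* overlapped between the genotypes at 180 days, at 1.01, 1.09 and 0.868 units in LY mice and 0.860, 1.08 and 0.991 units in black mice. At 90 days it spread more, at 0.887, 0.554 and 1.05 units in LY mice and 1.58, 0.925 and 1.16 units in black mice. The 90-day groups overlapped, and their log2 difference of -0.57 ± 0.24 (SE) missed the threshold (limma adjusted p = 0.348, unadjusted p = 0.0391). *Thrsp* is abundant in fat, and at 90 days the summed adipocyte markers were 52.7, 15.8 and 39.5 units in LY replicates 1, 2 and 3 and 79.1, 21.4 and 61.4 units in black replicates 1, 2 and 3. In each genotype at 90 days the mouse with the lowest adipocyte sum, replicate 2, also had the lowest *Thrsp*. At 180 days this order was not seen, since LY replicate 3 had the highest adipocyte sum of its group (43.2 units) and the lowest *Thrsp* (0.868 units), and black replicate 2 had the lowest sum (34.5 units) and the highest *Thrsp* (1.08 units). The part of adhering fat in the *Thrsp* values was not tested.

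*Gpam* and *Pnpla3*, which act in glycerolipids and on lipid droplets, overlapped between LY and black mice at both ages. *Gpam* was at 1.68, 1.92 and 1.93 units in 180-day LY mice and at 1.76, 1.56 and 1.69 units in 180-day black mice (log2 difference 0.14, 95% interval -0.31 to 0.60). At 90 days it was at 1.93, 3.07 and 3.19 units in LY mice and at 2.13, 3.17 and 3.22 units in black mice. The first mouse of each 90-day group was low by about 1 unit, which widened both groups' spread to 0.693 units in LY mice and 0.615 units in black mice (SD). *Pnpla3* was at 7.02, 7.15 and 7.40 units in 180-day LY mice and at 6.27, 8.01 and 7.82 units in 180-day black mice. At 90 days *Pnpla3* was at 8.73, 9.47 and 8.18 units in LY mice and at 7.22, 7.79 and 10.5 units in black mice. Its log2 differences were -0.03 at 180 days (95% interval -0.35 to 0.30) and 0.06 at 90 days (-0.26 to 0.39), with the LY mice inside the range of the black mice at both ages.

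Counted over the genotype comparisons, none of the 8 genes passed the adjusted threshold at 180 days, where 0.0422% of all probes did (13 probes, 12 of them higher in LY mice, or 16 higher and 4 lower after quantile normalization). None passed at 90 days either, where 0.052% of all probes did, and none passed in the interaction, where 0% of all probes did. With limma and an unadjusted p under 0.05, 2 of the 8 were counted at 180 days (*Acly* and *Acss2*, both higher in LY mice) against 11.9% of all probes. At 90 days 3 were counted (*Acly*, *Acss2* and *Thrsp*, all lower in LY mice) against 13.3% of all probes, and 2 in the interaction (*Acly* and *Acss2*) against 12.1%. All counts here take the brightest probe of a gene. The dimmer *Fasn* probe, left out of them, was higher in LY mice at 90 days (log2 difference 0.48, limma unadjusted p = 0.00646). The methods' t-test with the Benjamini-Hochberg adjustment counted 0 of the 8 at both ages. By it 0 of all probes passed at 180 days and 1 at 90 days. The LY mice lay above the black mice without overlap for 3 of the 8 genes at 180 days (*Acly*, *Acss2* and *Fasn*), against 14.2% of all probes, and below them for 1 of 8 at 90 days (*Acss2*), against 9.57%. The log2 difference was positive for 6 of 8 genes at 180 days and for 1 of 8 at 90 days, against 55.9% and 49.2% of all probes. The median of the 8 was 0.10 at 180 days and -0.09 at 90 days, with medians over all probes of 0.03 and -0.00, and kept these signs after quantile normalization (0.07 and -0.05).

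**Figure D2:**
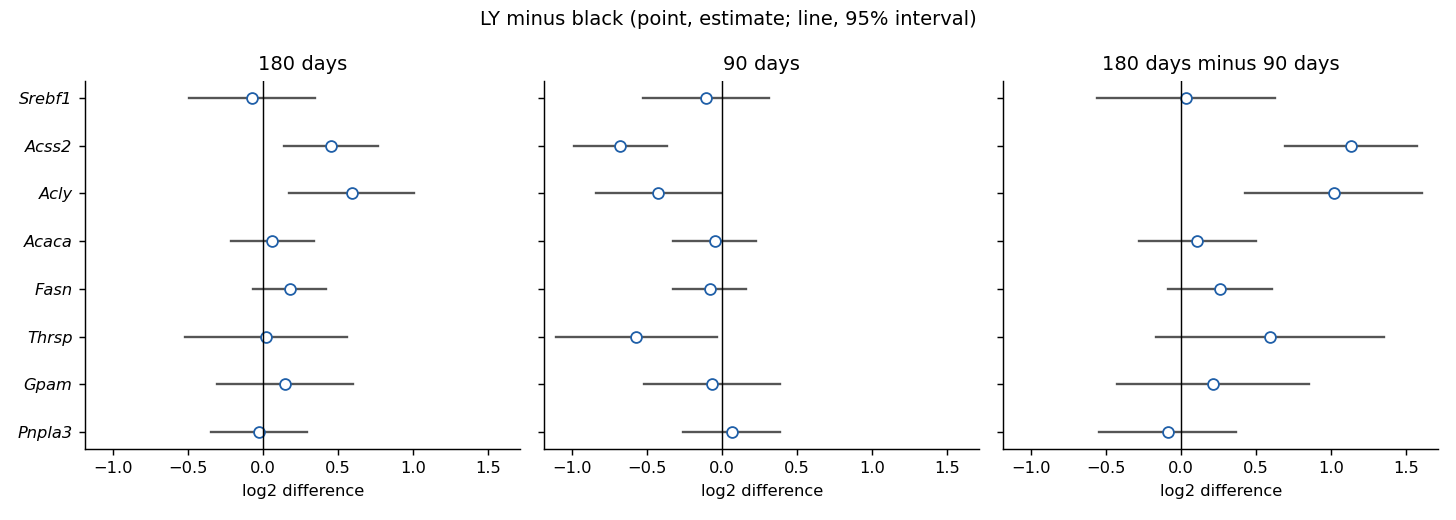
LY minus black log2 differences of the 8 genes at 180 days, at 90 days, and the 180-day difference minus the 90-day difference, each as a point with its 95% interval (limma, n = 3 mice per group); open points missed the adjusted threshold of 0.05. *Acss2* and *Acly* lie right of 0 at 180 days and left of it at 90 days, and their interactions of 1.13 and 1.02 have intervals that leave out 0.

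Between the ages the 8 genes differed more than between genotypes, as did probes in general. Because each age had its own arrays, the age of the mice and the set of arrays cannot be told apart in any value of this comparison. In LY mice 4 of the 8 genes passed the test, 3 lower and 1 higher on the 180-day arrays, and 47.2% of all probes passed it (19.4% lower and 27.8% higher). In black mice 5 of 8 passed it, all lower, against 46.8% of all probes (21% lower). These totals are near the share of all probes. The median of the 8 was -0.38 in LY and -0.55 in black mice on the log2 scale, where the medians over all probes were 0.07 and 0.04.

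*Srebf1* was 2.78-fold lower at 180 days in LY mice and 2.85-fold lower in black mice (log2 difference -1.48 and -1.51; limma adjusted p = 0.000118 and 0.000102). *Acly* was 2.10-fold lower in LY mice and 4.25-fold lower in black mice (-1.07 and -2.09; limma adjusted p = 0.000943 and 1.02e-05). *Acss2* was 1.38-fold lower in LY mice and 3.04-fold lower in black mice (-0.47 and -1.60; limma adjusted p = 0.0188 and 8.42e-06). For both suppliers the age difference was thus smaller in LY mice, which is the interaction given above seen from the other side. The *Acss2* call in LY mice was lost without 180-day LY replicate 2 or 3 or 90-day LY replicate 3 (limma adjusted p = 0.0716, 0.0575 and 0.0688).

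*Acaca* went the other way, 1.36-fold higher at 180 days in LY mice (log2 difference 0.44; limma adjusted p = 0.0146, or 0.0766 after quantile normalization), with 0.33 in black mice at the edge of the threshold (limma adjusted p = 0.0507). The brighter *Fasn* probe fell by 0.35 in black mice (limma adjusted p = 0.0254), a call that was lost when either replicate 2 or replicate 3 of either black group was left out (adjusted p = 0.0590 to 0.0853), and it differed by -0.08 in LY mice. The dimmer *Fasn* probe was 0.64 higher in LY and 0.99 higher in black mice on the log2 scale (limma adjusted p = 0.00406 and 0.000259), so the gene has no settled direction with age. *Gpam* was lower by 0.75 in black mice (log2 difference -0.75; limma adjusted p = 0.0122), and its difference in LY mice was -0.54 (limma adjusted p = 0.0526). Without 90-day LY replicate 1 *Gpam* in LY mice gave -0.77 (limma adjusted p = 0.00563). *Thrsp* (0.30 in LY and -0.30 in black mice) and *Pnpla3* (-0.29 and -0.20) did not pass the test in either genotype.

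**Figure D3:**
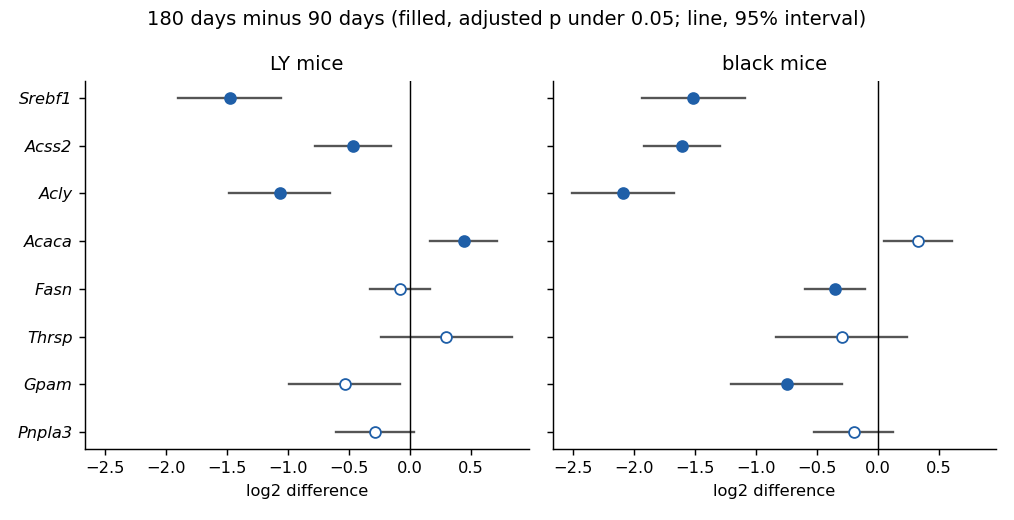
Log2 differences of the 8 genes between 180-day and 90-day mice, in LY mice on the left and black mice on the right, with 95% intervals (limma, n = 3 mice per group); filled points passed the adjusted threshold of 0.05. *Srebf1*, *Acss2* and *Acly* are filled and left of 0 in both genotypes, from -0.47 (*Acss2* in LY mice) to -2.09 (*Acly* in black mice), and *Acaca* is right of 0.

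The genes around SREBP-1 and along the pathway were read from 6 further lists. Of 7 measured genes that process or sense SREBP, none passed the test at either age. The log2 difference of *Srebf2*, which encodes SREBP-2, the regulator of cholesterol genes, was 0.46 at 180 days and -0.43 at 90 days (limma adjusted p = 0.134 and 0.113), without overlap at either age. Its mean was 3.90 ± 0.112 units in LY mice and 2.83 ± 0.1004 units in black mice at 180 days, and 2.27 ± 0.157 units in LY and 3.07 ± 0.336 units in black mice at 90 days. Its interaction of 0.90 missed the threshold as that of *Acss2* did (limma adjusted p = 0.0810), as no probe tested passed it. *Mbtps1*, the first of the proteases that cut SREBP, had -0.54 at 180 days and *Insig1*, which holds SREBP in the endoplasmic reticulum, had 1.06 (limma adjusted p = 0.291 and 0.306). *Insig1* was dim, at 0.422 ± 0.0513 units in LY mice and 0.233 ± 0.145 units in black mice (SD), and the groups overlapped. At 180 days 2 of the 7 genes had an unadjusted p under 0.05 with higher and 1 with lower values in LY mice, against 11.9% of all probes. At 90 days 2 of them did with lower values, against 13.3%.

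Of 12 measured transcription factors of lipogenesis, none passed the test in the genotype comparisons, and their median difference was -0.00 at 180 days and -0.04 at 90 days. None had an unadjusted p under 0.05 at 180 days (11.9% of all probes) and 1 did at 90 days (13.3%). The factors with the smallest p at 180 days were *Rxra*, partner of the oxysterol receptors, at 0.27, *Pparg*, the adipogenic receptor, at -0.39, and *Mlxipl*, which encodes the glucose-responsive ChREBP, at 0.26 (limma adjusted p = 0.433, 0.485 and 0.555).

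Of 12 other genes of fatty acid synthesis and desaturation, 1 passed the test. *Me1*, the malic enzyme that provides NADPH to *Fasn*, was 1.89-fold higher in LY mice at 180 days (log2 difference 0.92; limma adjusted p = 0.0373) and differed by -0.27 at 90 days (adjusted p = 0.369). Its log2 difference at 180 days stayed at 0.84 to 1.01 on leaving out 1 array at a time, while the adjusted p ranged from 0.0416 to 0.148 and the call was lost without 10 of the 12, also without 90-day arrays, which do not enter the difference. The exceptions were 180-day LY replicate 1 and 90-day LY replicate 3. The methods' t-test gave an adjusted p of 0.231. *Me1*, the elongase *Elovl5* and the mitochondrial citrate carrier *Slc25a1* each had LY mice above black mice at 180 days and below them at 90 days without overlap, as *Acss2* did, with interactions of 1.19, 0.77 and 0.87 (limma adjusted p = 0.0739, 0.0907 and 0.101). *Elovl5* had 0.41 at 180 days and -0.36 at 90 days, and the desaturase *Fads1* had 0.70 and 0.02 (limma adjusted p = 0.154 and 0.202 at 180 days). Under an unadjusted p of 0.05, 5 of the 12 were higher and 1 lower in LY mice at 180 days, against 11.9% of all probes. At 90 days 1 was higher and 4 lower, against 13.3%. The list's median was 0.18 at 180 days and -0.08 at 90 days.

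The 12 measured genes of later glycerolipid synthesis had medians of 0.07 at 180 days and -0.14 at 90 days, and none passed the test. *Agpat3*, which acylates lysophosphatidic acid, came closest at 180 days with 62.2 ± 3.38 units in LY mice and 43.2 ± 0.896 units in black mice (log2 difference 0.52; limma adjusted p = 0.0551), and *Lpin3* and *Lpin2*, phosphatidate phosphatases, had 0.36 and 0.26. At 180 days 3 of the 12 had an unadjusted p under 0.05, all higher in LY mice, against 11.9% of all probes. At 90 days 4 did, all lower, against 13.3%. The 11 acyl-CoA synthetases and other acetyl-CoA enzymes had medians of 0.25 and -0.08, and none passed the test. Among them the thioesterase *Acot12* had 1.43 at 180 days, citrate synthase *Cs* 0.38 and the synthetase *Acsl3* 0.49 (limma adjusted p = 0.226, 0.251 and 0.274). *Acot12* was dim, at 0.419 units in LY mice and 0.167 units in black mice, the latter under the limit of sensitivity. An unadjusted p under 0.05 was reached by 3 of the 11 at 180 days, all higher in LY mice, against 11.9% of all probes. It was reached by 3 at 90 days, all lower, against 13.3%. The 8 lipases and coat proteins of lipid droplets had medians of 0.21 and -0.18 with none past the test, and the smallest p at 180 days were those of *Mgll*, monoacylglycerol lipase, at 0.46, *Plin5*, a droplet coat protein, at 0.96, and *G0s2*, an inhibitor of lipolysis, at 0.30. Of these 8, 2 had an unadjusted p under 0.05 at 180 days, both higher in LY mice, against 11.9% of all probes. At 90 days 3 had it, all lower, against 13.3%. *Lpin3*, *Acsl4*, *Acsl5* and *Plin5* each had LY mice above black mice at 180 days and below them at 90 days without overlap. This pattern was that of 1.82% of all probes. Their interactions were 1.04, 1.02, 0.67 and 2.88, and none passed (limma adjusted p = 0.109, 0.153, 0.187 and 0.109). *Plin5* had -1.92 at 90 days (limma adjusted p = 0.111). *Acsl4* was dim, at 0.232 units in LY mice and 0.360 units in black mice at 90 days.

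**Figure D4:**
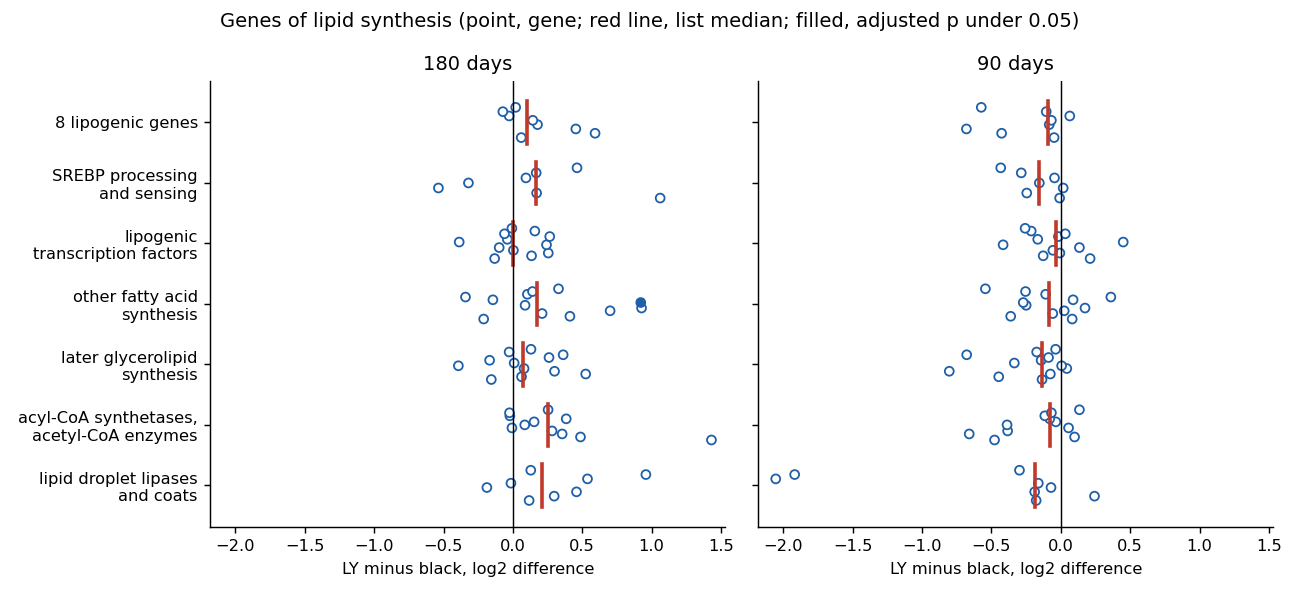
LY minus black log2 differences at 180 days (left) and 90 days (right) for the 8 lipogenic genes and 6 lists of related genes, 1 point per gene (brightest probe), with the list median as a red line; the filled point passed the adjusted threshold of 0.05. The filled point is *Me1* at 0.92, and apart from the transcription factors each list has a positive median at 180 days and a negative one at 90 days, also after quantile normalization.

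Across the 12 arrays, with log2 values centred within each age, the genes whose pattern was most like that of a member differed from member to member. For *Acly* they were *Sqle*, squalene epoxidase of cholesterol synthesis (Pearson's r = 0.963), and *Rtn4rl1* (0.959), and for *Acss2* they were *Fbxw11* (0.960) and *F8a* (0.944). *Srebf1* was followed most closely by *Grk6* and *Pdpr* (0.926 and 0.915), *Acaca* by *Wdr61* and *Hnrnpf* (0.951 for each), and *Fasn* by *Uqcrc1* and *Tigar* (0.932 and 0.921). The nearest genes were *1700019G24Rik* and *Garnl3* for *Thrsp* (0.961 and 0.935), *Pou6f1* and *Tgoln1* for *Gpam* (0.942 and 0.925), and *Cys1* and *Cops7b* for *Pnpla3* (0.923 and 0.898). These are the highest values among all genes tested, over 12 arrays that share sets and genotypes, and are a description. Among the members themselves, *Acly* and *Acss2* correlated at 0.74 when centred within age and at 0.29 when centred within group. *Srebf1* and *Acly* correlated at 0.46 within age and 0.76 within group, and *Acly* and *Gpam* at 0.63 and 0.74. Other pairs were near 0 or negative, such as *Srebf1* and *Acss2* at -0.01 and -0.18. *Acly* and *Thrsp* had -0.02 and -0.63. Within group the pairs ran from -0.77 (*Fasn* and *Thrsp*, -0.35 within age) to the 0.76 of *Srebf1* and *Acly*.

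*Acss2* lies on chromosome 2, as do agouti and *Raly*, with 8 protein-coding genes between agouti and *Acss2* in the GRCm38.p6 annotation (*Ahcy*, *Itch*, *Dynlrb1*, *Map1lc3a*, *Pigu*, *Trp53inp2*, *Ncoa6* and *Ggt7*). None of these 8 passed the test at either age. *Dynlrb1* and *Trp53inp2* shared the pattern of *Acss2*, with LY mice above black mice at 180 days and below them at 90 days, at log2 differences of 0.20 and -0.21 for *Dynlrb1* and 0.30 and -0.23 for *Trp53inp2*, a pattern that 1.82% of all probes had. The other 6 between agouti and *Acss2* did not have it, nor did *Gss*, *Trpc4ap*, *Edem2* and *Procr*, the genes beyond *Acss2* that were looked at. The other 7 members lie on other chromosomes, with *Srebf1*, *Acly*, *Acaca* and *Fasn* on chromosome 11, *Thrsp* on 7, *Gpam* on 19 and *Pnpla3* on 15. Whether alleles linked to Ay bear on the *Acss2* values was not tested.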

How the data were processed

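Ovarian RNA of 12 mice, both genotypes at both ages, was hybridized to 1 CodeLink array per mouse. GenePix scans were background-corrected by the authors in the CodeLink software and normalized in GeneSpring, and what they deposited is relative intensity with a median of 1.00 on the 180-day and 1.04 on the 90-day arrays. They name 0.2 units as the limit of sensitivity. Between 80.8 and 83.3% of values per array reached it, and 3 arrays a group limit the precision.

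Here the values of an array were divided by the array's median, floored at 0.01 units and put on the log2 scale, so differences of dim probes depend on the floor. Probes measured on every array whose mean reached 0.2 units in 1 or more groups were tested, 30795 of 36227 (21615 of all carry 1 gene name in the platform annotation, 681 several and 13931 none here). limma 3.58.1 in R 4.3.3 was fitted to the 12 arrays together with a mean for each of the 4 groups (8 residual and 2.46 prior degrees of freedom), with the Benjamini-Hochberg adjustment over all probes tested and a threshold of 0.05. Adjusted p-values are limma's, intervals are 95% intervals of single differences, and SD is over mice and SE that of the fit. The replicates are separate mice. Where a gene has more than 1 probe, the brightest stands for it and the others are given beside it. From each related list any gene past the threshold and otherwise up to 3 genes with the smallest p at 180 days are named. For each member the 2 genes with the highest r are given. The interactions of *Srebf2*, *Me1*, *Elovl5*, *Slc25a1*, *Lpin3*, *Acsl4*, *Acsl5* and *Plin5* and the neighbours of *Acss2* were singled out after their values were seen. The fit was tested on simulated data. The members and lists were chosen with earlier results of these data known. The alternatives changed the scaling, floor, filter, spread model, test, arrays in the fit, block, probe summary and arrays left out.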

Additional observations from a re-analysis of the deposited data

Results flagged for a closer look

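The genotype difference of *Acss2* at 180 days exceeded that at 90 days by 1.13 on the log2 scale. It is listed here because every LY mouse was above every black mouse at 180 days and below every black mouse at 90 days. The interaction itself missed the threshold in limma (adjusted p = 0.0907 over all probes), and over the alternatives its adjusted p ranged from 0.0242 to 0.316.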

How the results depend on the processing

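With limma 0 of the 8 genes passed at 180 days under every alternative. At 90 days 1 passed (*Acss2*) with a group mean of at least 1 unit required and 1 with an intensity trend (adjusted p = 0.0347 and 0.0389), and none of the single arrays left out changed the count of 0. With that filter and with that trend 219 and 184 of all probes passed as lower in LY mice at 90 days, against 14 in the fit reported. As higher 24 and 19 passed, against 2. In the interaction 1 passed under the same settings, and 0 to 1 when single arrays were left out. In the age comparison the members called ranged from 3 to 6 in LY mice and from 4 to 6 in black mice over the alternatives (3 to 5 and 4 to 5 with single arrays left out). The labels do not say whether replicate numbers pair the mice. Correlations of same-numbered LY and black mice were taken on log2 values less the group mean of each probe. They were -0.07 to -0.00 at 180 days, and 0.05 to 0.15, all positive, at 90 days. 0 of 6 arrays at 180 days and 4 of 6 at 90 days correlated best with their own number, and with the replicate block 0 members passed at either age, against 0 without it, and 2 and 1 of all probes passed (13 and 16 without it). With blocks shared by all 4 groups, chosen after seeing the data, 0 members passed at either age and 5 in each age comparison. Besides *Fasn* with the mean of its probes, single genes in the age comparison gained a call 10 times and lost one 4 times in LY mice over the alternatives, and 7 and 4 times in black mice. The calls over all probes ranged from 0 to 146 at 180 days (13 in the fit reported), from 1 to 243 at 90 days (16), from 0 to 222 in the interaction (0), from 11826 to 16790 with age in LY mice (14545) and from 11535 to 14635 in black mice (14427).

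The sign of small, uncalled differences turned as follows, on the log2 scale; apart from *Fasn* with age none passed the test, and the cause was not tested. With quantile normalization it turned for *Acaca* (-0.014 at 180 days, 0.036 at 90 days, -0.050 in the interaction), *Fasn* at 90 days (0.0038) and *Srebf1* in the interaction (-0.018), and with array weights for *Gpam* at 90 days (0.047) and *Srebf1* in the interaction (-0.087). With the mean of both *Fasn* probes it turned at 90 days (0.20) and in the interaction (-0.045), and the age differences of *Fasn* became 0.28 in LY and 0.32 in black mice and did pass (adjusted p = 0.0360 and 0.0186). With 1 mouse left out at a time, the 180-day difference spanned 0 for *Srebf1* (-0.23 to 0.085), *Thrsp* (-0.068 to 0.11) and *Pnpla3* (-0.14 to 0.038). The 90-day difference spanned 0 for *Srebf1* (-0.26 to 0.035), *Acaca* (-0.16 to 0.11), *Fasn* (-0.20 to 0.013), *Gpam* (-0.26 to 0.16) and *Pnpla3* (-0.045 to 0.23), and the interaction for *Srebf1* (-0.12 to 0.19), *Acaca* (-0.053 to 0.22), *Gpam* (-0.020 to 0.41) and *Pnpla3* (-0.25 to 0.018). Neither *Acly* nor *Acss2* changed sign in any comparison under any alternative run. Signals close to 0.2 units, as for the dimmer *Srebf1* and *Fasn* probes, limit what can be said of them.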
